A study of Mus musculus with 15 samples.

Results

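Eyes with open eyelids were compared with eyes with closed eyelids in BALB/c mice 3 days after birth. All 8 libraries titled as day 3 were taken, out of 15 in the series, and each held the RNA of 1 eye. The 4 open eyes were the right eye of mouse E24, the left eye of E29 and both eyes of E32, all labelled Egr1-/-. The 4 closed eyes were the left eye of E24 and the right eye of E29, labelled Egr1-/-, and both eyes of E28, labelled Egr1+/-. No wild-type eye was sequenced at this age, and the heterozygous group was 1 mouse. The Egr1-/- line came from C57BL/6 and was crossed back to BALB/c over 5 generations, or over 4 in a second round. Protocols in the labels describe eyes removed with their lids, and each day 3 library held 31981438 to 43907093 reads in transcripts. Mouse was held as a block, so the contrast of the eyelid states rested on E24 and E29, which had 1 eye of each state. E32 and E28 entered only the estimate of the spread, the filter on low counts and the scaling.

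Egr1 is an immediate-early zinc finger transcription factor that is switched on by growth factors and by injury. In mice the eyelids grow over the cornea before birth, fuse through a sheet of epithelial cells, and separate again when the animal is older. If the lids are not fused at birth, the cornea and conjunctiva are exposed to air and friction. Epidermis that is wounded or stressed is known to make keratins 6, 16 and 17 and the small proline-rich proteins, which are cross-linked into the cornified envelope of the outer cell layer.

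Of 15754 genes tested, 72 were higher in open eyes (0.457%) and 9 were lower (0.0571%), which came to 81 genes (0.514%) at an adjusted p of 0.05 in edgeR's quasi-likelihood test. The genes that rose included many of keratinocytes: the stress keratins Krt6a, Krt6b, Krt16 and Krt17, basal keratins Krt5 and Krt14, the laminin genes Lama3 and Lamb3, and the small proline-rich genes Sprr1a, Sprr1b and Sprr3. The cytokine gene Il1b, the platelet chemokine gene Ppbp and the arginase gene Arg1 rose as well. Among the genes that fell was Krt12, the keratin of the corneal epithelium. The median log2 difference over all genes was 0.02. At an unadjusted p under 0.05 in edgeR, 885 genes were higher and 100 lower. Fewer cells of a type and less RNA per cell cannot be told apart in whole eyes.

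The promoters of 5 of these genes were picked by hand to be shown. All 5 genes were far higher in open eyes, but they were not the 5 largest rises. Sprr1a, Sprr1b and Sprr3 lie next to each other on chromosome 3, Krt14 is followed by Krt16 and Krt17 on chromosome 11, and Ppbp was the chemokine gene that passed. Each line holds the 250 bases before the gene's start in RefSeq on build GRCm38.p6, read 5′ to 3′ on the gene's strand, with matches to the AP-1 motif TGANTCA on either strand in capitals. The positions are chr3:92485882-92486131 (minus strand) for Sprr1a, chr3:92438780-92439029 (minus) for Sprr1b, chr3:92458721-92458970 (minus) for Sprr3, chr11:100206031-100206280 (minus) for Krt14 and chr5:90768268-90768517 (plus) for Ppbp.
Sprr1a: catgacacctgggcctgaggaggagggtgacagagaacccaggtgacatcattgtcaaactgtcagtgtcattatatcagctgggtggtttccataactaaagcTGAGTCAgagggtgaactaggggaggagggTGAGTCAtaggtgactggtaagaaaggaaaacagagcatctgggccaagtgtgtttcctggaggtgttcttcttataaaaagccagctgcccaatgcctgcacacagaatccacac
Sprr1b: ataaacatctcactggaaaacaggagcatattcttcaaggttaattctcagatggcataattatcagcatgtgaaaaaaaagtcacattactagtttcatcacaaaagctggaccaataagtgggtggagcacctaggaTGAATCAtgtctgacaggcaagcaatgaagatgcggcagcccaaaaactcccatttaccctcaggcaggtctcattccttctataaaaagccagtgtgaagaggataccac
Sprr3: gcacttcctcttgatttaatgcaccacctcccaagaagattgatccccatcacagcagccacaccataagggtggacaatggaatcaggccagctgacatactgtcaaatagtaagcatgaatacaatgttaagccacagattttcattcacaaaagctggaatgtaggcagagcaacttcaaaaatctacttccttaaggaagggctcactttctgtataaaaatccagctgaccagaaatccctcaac
Krt14: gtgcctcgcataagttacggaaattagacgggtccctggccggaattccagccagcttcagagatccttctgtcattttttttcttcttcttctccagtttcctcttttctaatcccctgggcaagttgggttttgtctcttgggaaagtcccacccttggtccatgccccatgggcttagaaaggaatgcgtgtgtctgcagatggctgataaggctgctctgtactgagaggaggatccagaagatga
Ppbp: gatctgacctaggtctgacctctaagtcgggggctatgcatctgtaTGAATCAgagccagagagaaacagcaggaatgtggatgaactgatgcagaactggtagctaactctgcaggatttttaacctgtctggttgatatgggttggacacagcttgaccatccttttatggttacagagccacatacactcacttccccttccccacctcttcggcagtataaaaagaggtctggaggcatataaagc

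AP-1 is the dimer of Jun and Fos proteins that acts in stressed keratinocytes. The Sprr1a promoter held 2 matches, which began 146 and 116 bases before the start, both reading TGAGTCA. Sprr1b had 1 match that began 111 bases before the start and Ppbp 1 that began 204 bases before it. Sprr3 and Krt14 held none in this window. Of the genes not shown, Cnfn, with the largest rise, and Il1b held none, and Cldn4 held 2. Of the 72 genes that rose, 45 had a promoter in the RefSeq table, and 8 of these (17.8%) held the AP-1 motif, against 4.89% of the 10702 tested genes with a promoter. The EGR motif GCGNGGGCG was in 3 of the 45 (6.67%), against 8.54% of the 10702. None of the 8 promoters of genes that fell held either motif. The shares are descriptions of letters in these windows and no test was made of them.

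Egr1 itself did not mark the labels. Its level in CPM (reads scaled to library size) was 141 (E24), 263 (E29), 309 and 329 (E32 right and left) in open eyes and 135 (E24) and 193 (E29) in closed eyes labelled Egr1-/-. In the closed eyes labelled Egr1+/- it was 86.1 and 96.2. Every eye labelled Egr1-/- thus had more Egr1 reads than either heterozygous eye, which goes against a loss of the transcript, and the sources used here do not give the part of the gene that was deleted. Open against closed, Egr1 had a log2 fold change of 0.25 ± 0.16 (SE) with an edgeR adjusted p of 0.999.

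**Figure D1:**
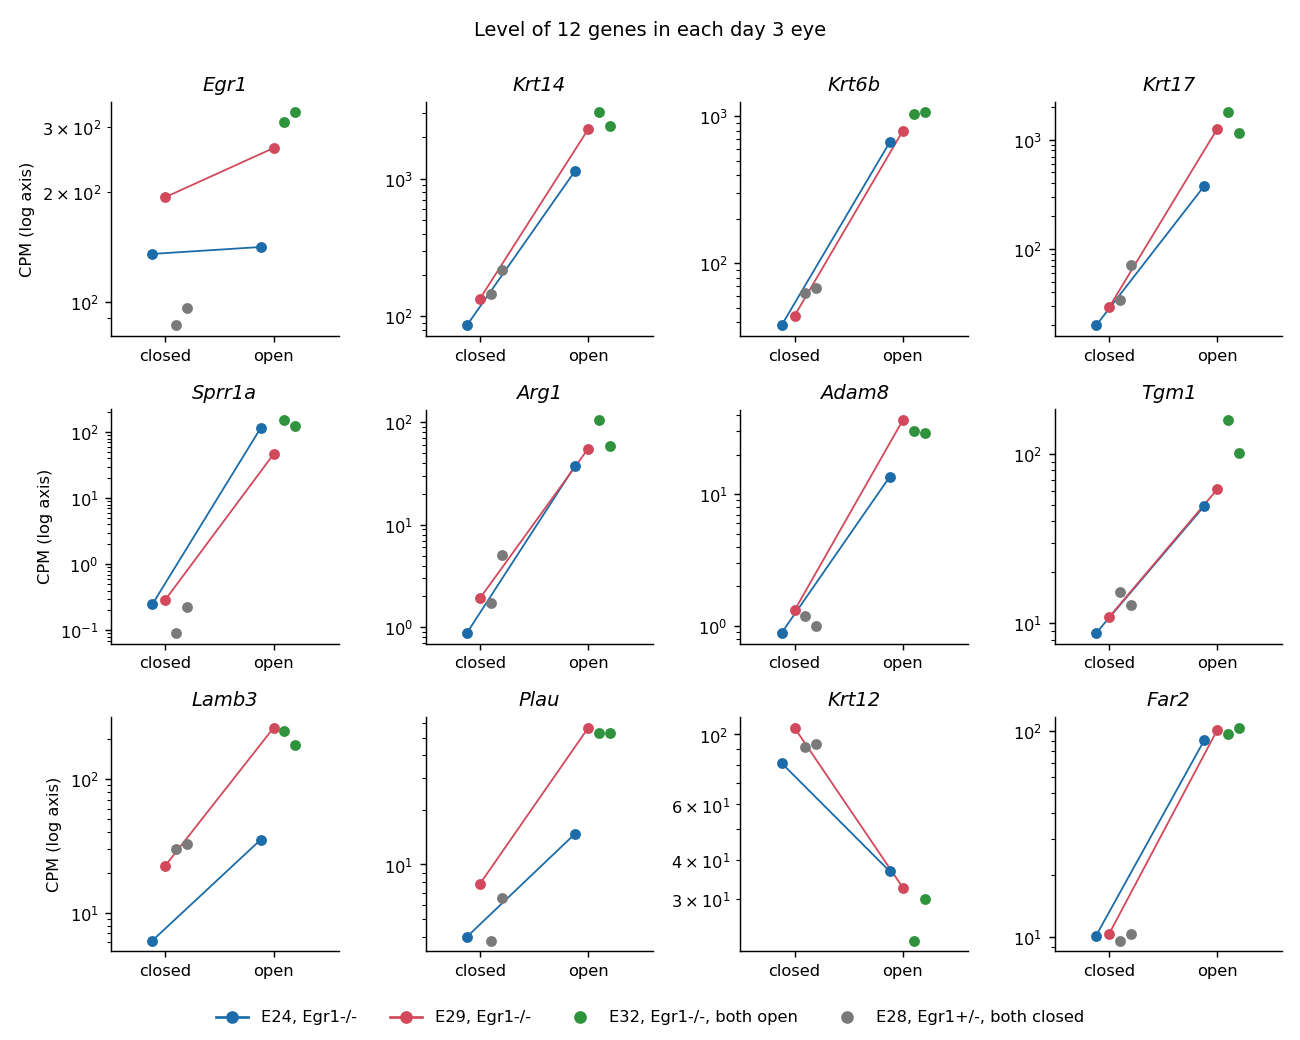
Level of Egr1 and 11 genes called different, in CPM on a log axis, in each of the 8 eyes. Lines join the closed and open eye of E24 and of E29, and single points are the eyes of E32 (open) and E28 (closed). Krt14 ran from 1147 to 3040 in open and from 85.9 to 218 in closed eyes, and Egr1 of the open E24 eye, at 141, was below that of the closed E29 eye, at 193.

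The stress keratins separated the states without overlap. Krt6b was 669, 797, 1038 and 1063 CPM in the open eyes of E24, E29, E32 right and E32 left, and 37.9, 44, 63.2 and 68.5 in the closed eyes of E24, E29 and E28 (right, then left). The log2 fold change was 4.16 ± 0.17 (edgeR adjusted p = 0.000637), the smallest p of all genes. Krt6a was 1029 to 1845 CPM in open and 93.2 to 171 in closed eyes (3.67 ± 0.21, adjusted p = 0.00202). Krt16, the usual partner of keratin 6, was 273 to 485 CPM in open and 10.6 to 23.7 in closed eyes (4.67 ± 0.29, adjusted p = 0.00219). Krt17 was lower in the open eye of E24, at 379 CPM, than in the other open eyes, at 1144 to 1770, and all closed eyes were at 20 to 71.8 (4.84 ± 0.50, adjusted p = 0.0114). In transcripts of a later annotation, 44.5% of the 50-base words of Krt6b also occur in Krt6a and 40.2% of those of Krt6a in Krt6b, so the counts of these genes may include each other's reads. Krt14 shares 11% of its words with Krt16 and Krt17 shares 3.66% with Krt14.

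Small proline-rich genes were close to absent from closed eyes. Sprr1a was 115, 46.5, 152 and 125 CPM in the open eyes of E24, E29, E32 right and E32 left, and from 0.0911 to 0.29 in closed eyes (log2 fold change 8.13 ± 0.41, edgeR adjusted p = 0.000906). Sprr1b was 9.44 to 28.7 CPM in open eyes and 0 to 0.353 in closed eyes (6.30 ± 0.57, adjusted p = 0.0123). Sprr3 had 391, 48, 337 and 386 reads in the open eyes of E24, E29, E32 right and E32 left, and 1 read in the 4 closed eyes together. Within E24 and E29, Sprr3 was 407-fold higher in open eyes with a 95% counting interval of 72.7 to 16124. Cnfn, which encodes the cornified-envelope protein cornifelin, had 508 and 217 reads in the open eyes of E24 and E29 and 1 and 0 in their closed eyes, 673-fold higher with an interval of 120.3 to 26605. In limma with the mouse as a random effect neither Sprr3 (adjusted p = 0.176) nor Cnfn (adjusted p = 0.229) passed. These intervals come from exact binomial limits and cover counting error alone.

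The list of 43 tested wound and stress genes of keratinocytes held 9 that rose and none that fell, beside 0.457% of all genes that rose. Its median log2 difference was 4.57, or 2.95 with genes without reads in the closed eyes of E24 and E29 set at their counting bound. Some of the 43 passed the filter on low counts only through E32. Without E32, 30 were tested, with a median of 3.79 and 9 higher, beside 117 of all 15361 genes. The summed level of the list ran from 2918 to 6240 CPM in open and from 411 to 598 CPM in closed eyes. E24 had the lowest sum in open eyes, and no open eye overlapped the closed ones.

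Basal epidermal genes formed the next group. Of 24 tested, 8 rose and none fell, beside 0.457% of all genes that rose, with a median of 1.58. Krt14, the basal keratin, was 1147, 2298, 3040 and 2440 CPM in the open eyes of E24, E29, E32 right and E32 left, and 85.9, 134, 145 and 218 in the closed eyes of E24, E29 and E28 (right, then left) (3.92 ± 0.28, edgeR adjusted p = 0.00261). Its partner Krt5 was 1611 to 4615 CPM in open and 404 to 776 in closed eyes (2.06 ± 0.22, adjusted p = 0.0127). In the authors' RPKM, which corrects for the length of a transcript, the mean over open eyes was 1265 for Krt5 and 1207 for Krt14. Sfn, which encodes 14-3-3 sigma, was 148 to 545 CPM in open and 20.4 to 47 in closed eyes (2.92 ± 0.23, adjusted p = 0.0044). Dsg3, the basal desmoglein, was 29.2 to 56.2 CPM in open and 3.85 to 6 in closed eyes (2.68 ± 0.23, adjusted p = 0.0056). Trp63, the p63 regulator of basal cells, did not pass: it was 9.71 to 96 CPM in open and 6.14 to 20.9 in closed eyes (0.87 ± 0.32, adjusted p = 0.647).

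Lama3 and Lamb3, which encode laminin chains of the basement membrane under basal cells, rose, but E24 stood low. Lamb3 was 35.2, 243, 230 and 179.6 CPM in the open eyes of E24, E29, E32 right and E32 left, and 6.17, 22.5, 30 and 32.9 in the closed eyes of E24, E29 and E28 (right, then left) (2.99 ± 0.26, edgeR adjusted p = 0.00598). Lama3 was 9.91 CPM in the open eye of E24 and 73.7 to 79 in the other open eyes, and 2.12 in the closed eye of E24 and 7.84 to 11.3 in the other closed eyes. It was the 1 gene of the 72 with an open eye, that of E24, inside the range of the closed eyes, although it was higher in the open eye of both mice (2.80 ± 0.28, adjusted p = 0.00971). In limma with the mouse as a random effect neither Lamb3 (adjusted p = 0.101) nor Lama3 (adjusted p = 0.2) passed. For the other 71, all open eyes were above all closed eyes, which held for 7.14% of all genes.

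The outer layers of the epidermis were covered by a list of cornification genes. Of 53 tested, 4 rose and none fell, beside 0.457% of all genes that rose, with a median of 2.27, or 2.25 with bounds. Some of the 53 passed the filter on low counts only through E32. Without E32, 31 were tested, with 7 higher and a median of 2.28. Tgm1, the enzyme that cross-links the envelope, was 49.4 to 158 CPM in open and 8.78 to 15.3 in closed eyes (2.50 ± 0.25, edgeR adjusted p = 0.00971). Asprv1, a protease of the granular layer, was lowest in E29 among the open eyes, at 78.9 CPM, and reached 435 in the right eye of E32, against 14.4 to 21.2 in closed eyes (3.14 ± 0.36, adjusted p = 0.0145). Krt1 and Lor, genes of the layers above the basal one, were highest in E32. Krt1 was 26, 44.3, 2084 and 785 CPM in the open eyes of E24, E29, E32 right and E32 left, and 3.63 to 8.41 in closed eyes (2.68 ± 0.61, adjusted p = 0.194). Lor was 5.92, 4.62, 583 and 196 CPM in the same eyes and 1.27 to 3.84 in closed eyes (1.17 ± 0.56, adjusted p = 0.915). The hair keratin Krt71 was 1073 CPM in the right eye of E32, 51.1 in its left eye and 1.17 to 1.55 in the open eyes of E24 and E29. How much of the difference in E32 goes with the skin and hair taken was not tested.

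Genes of mucosal epithelium rose with the epidermal ones, with 5 of 32 tested higher, none lower and a median of 1.58. Of all genes 0.457% were higher. Krt4, a keratin of non-cornified epithelium, was 212, 220.1, 803 and 592 CPM in the open eyes of E24, E29, E32 right and E32 left, and 23.4 to 101 in closed eyes (3.10 ± 0.26, edgeR adjusted p = 0.00553). Psca, a surface protein of mucosal cells, was 13.9 to 64.8 CPM in open and 0.153 to 0.6 in closed eyes (5.41 ± 0.51, adjusted p = 0.00894; 0.0686 in limma with the mouse as a random effect). Cldn4, a tight-junction protein, was 104 to 546 CPM in open and 23.2 to 58.9 in closed eyes (2.62 ± 0.31, adjusted p = 0.0172). Krt7 was 82.9 to 274 CPM in open and 26.3 to 66.1 in closed eyes (1.88 ± 0.22, adjusted p = 0.0173).

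The cornea gave a mixed picture. Of 22 tested genes of corneal epithelium and stroma, 3 rose, 1 fell, and the median was -0.06. Of all genes 0.457% rose and 0.0571% fell. Those that rose, Dsp, Gjb2 and Aqp3, are also made by other epithelia: Aqp3, a water and glycerol channel, was 138 to 363 CPM in open and 35.3 to 49.6 in closed eyes (2.03 ± 0.16, edgeR adjusted p = 0.0035). Krt12 was 36.8, 32.7, 22.2 and 30 CPM in the open eyes of E24, E29, E32 right and E32 left, and 81.2, 105, 91.1 and 93.1 in the closed eyes of E24, E29 and E28 (right, then left). The groups did not overlap, and the log2 fold change was -1.41 ± 0.21 (adjusted p = 0.0482). The call of Krt12 was lost with library totals (adjusted p = 0.0698), a minimum of 1 RPKM (0.0582), the side as covariate (0.0728), eyes labelled Egr1-/- alone (0.0576) and without E28 (0.0998) or either of its eyes (0.114 and 0.121). It was also lost without either eye of E24 or of E29. The call was kept in DESeq2 with the mouse block (adjusted p = 2.17e-07) and in limma with the mouse as a random effect (0.0018). In edgeR it was kept with E24 and E29 alone (0.0125), without E32 (0.0083), without the block (0.00103) and without the filter (0.028). DESeq2 size factors (0.0378) and TMM without lens genes (0.0366) kept it as well.

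**Figure D2:**
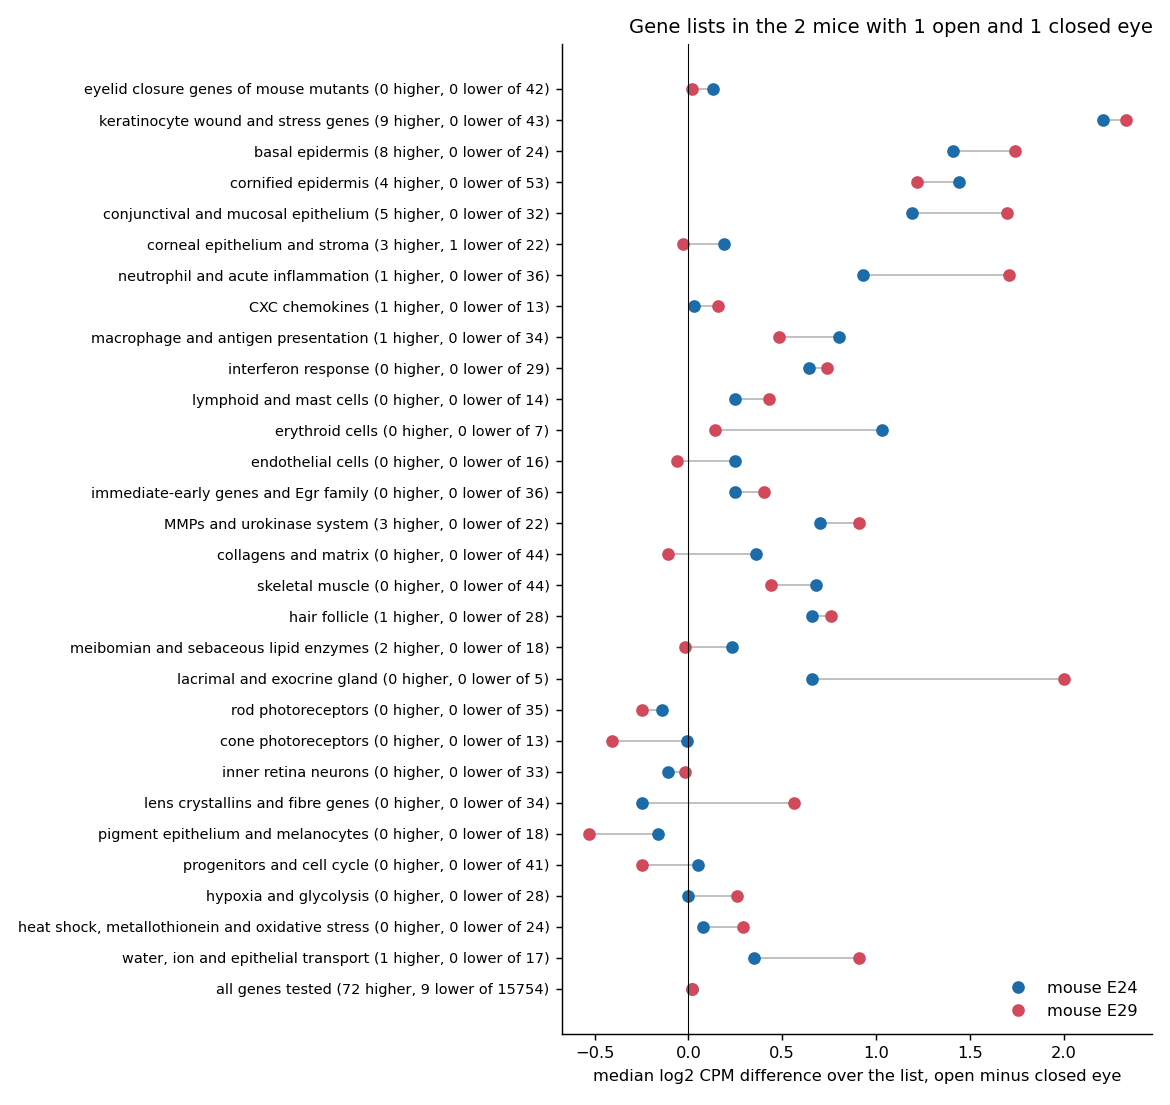
Median log2 CPM difference (open minus closed eye, 0.1 CPM added to each) over each gene list, in E24 and in E29, with the numbers of genes called higher and lower in brackets. Keratinocyte wound genes had medians of 2.21 in E24 and 2.33 in E29, and all genes tested 0.02 in each.

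Few inflammatory genes passed in edgeR, and more passed in DESeq2. Il1b, a cytokine of activated macrophages and keratinocytes, had 51 and 217 reads in the open eyes of E24 and E29 and 0 and 1 in their closed eyes, 249-fold higher with a 95% counting interval of 44.2 to 9857. Ppbp, a chemokine stored in platelets, was 14.8, 62.2, 53.5 and 32.1 CPM in the open eyes of E24, E29, E32 right and E32 left, and 0 to 0.254 in closed eyes (log2 fold change 7.63 ± 0.52, edgeR adjusted p = 0.00246). Arg1 was 37.6 to 104 CPM in open and 0.882 to 5.04 in closed eyes (5.09 ± 0.57, adjusted p = 0.0145). Of 36 tested neutrophil and acute-phase genes 1 rose, of 13 CXC chemokine genes 1 rose and of 34 macrophage genes 1 rose, with none lower. Of all genes 0.457% rose. Some of these members passed the filter on low counts only through E32. Without E32, 31, 10 and 32 were tested, with 1, 1 and 3 higher, beside 117 of all 15361 genes. At an unadjusted p under 0.05 in edgeR, 11, 3 and 13 of these lists were higher, beside 885 of all 15754 genes. DESeq2 with the mouse block called 7, 2 and 7 higher, beside 346 of all genes. In limma with the mouse as a random effect neither Il1b (adjusted p = 0.0842) nor Ppbp (adjusted p = 0.0999) passed, and no gene of the neutrophil or the chemokine list did. That fit called 5 macrophage genes higher. Of the neutrophil markers looked at, Ngp, Camp, Csf3r, S100a8 and S100a9, none passed in edgeR. Camp was 0.0329 to 2.33 CPM in open and 0 to 0.0705 in closed eyes (1.57 ± 1.84, edgeR adjusted p = 0.999). Csf3r was 5.07 to 13.1 CPM in open and 0.802 to 5.34 in closed eyes (1.3 ± 0.57, edgeR adjusted p = 0.846). Ngp was 0.79 to 17.1 CPM in open and 0.0608 to 0.458 in closed eyes, without overlap (1.48 ± 1.09, adjusted p = 0.999). S100a9 was 2.73 to 23 CPM in open and 1.45 to 3.38 in closed eyes (1.23 ± 0.52, adjusted p = 0.803), and S100a8 was 0.263 to 5.75 in open and 0.122 to 6.03 in closed eyes (-0.56 ± 1.17, adjusted p = 0.999). Of 29 interferon-response genes edgeR called 0, with 7 higher at an unadjusted p under 0.05, and DESeq2 called 1 higher.

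Other called genes of these lists were Dsp, Dsc2, Gjb2 and Lypd3. Dsp, which encodes desmoplakin and links keratin filaments to desmosomes, was 421, 521, 1016 and 790.1 CPM in the open eyes of E24, E29, E32 right and E32 left, and 69.1 to 174 in closed eyes (2.48 ± 0.27, edgeR adjusted p = 0.0132). Dsc2, a desmosomal cadherin, was 66.9 to 145 CPM in open and 14 to 31.8 in closed eyes (2.35 ± 0.28, edgeR adjusted p = 0.0173). It was the 1 gene of 28 on the hair follicle list to pass, against 0.514% of all genes. Without E32, 16 genes of that list were tested. Gjb2, the gap-junction protein connexin 26, was 23.2 to 156 CPM in open and 4.74 to 6.61 in closed eyes (2.63 ± 0.36, adjusted p = 0.0351; 0.0686 in limma with the mouse as a random effect). Lypd3, a surface protein of upper epidermal cells, was 128 to 415 CPM in open and 29.1 to 42.4 in closed eyes (2.30 ± 0.24, adjusted p = 0.0114). In each of these 4 genes the states did not overlap, and the right eye of E32 was highest for all but Dsc2.

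Other rises lay outside these groups. Nccrp1, a gene of squamous epithelium, was 62.3, 19.6, 128 and 68.5 CPM in the open eyes of E24, E29, E32 right and E32 left, and 0.254 to 1.45 in closed eyes (6.03 ± 0.69, edgeR adjusted p = 0.0145). Acsbg1, an acyl-CoA synthetase on the list of meibomian and sebaceous enzymes, was 13.8 to 58.5 CPM in open and 1.09 to 1.76 in closed eyes (3.68 ± 0.42, adjusted p = 0.0145). Of the 18 tested genes of that list, Acsbg1 and Far2 rose and none fell, beside 0.457% of all genes that rose. Abpe, an androgen-binding protein gene, had 4, 318, 677 and 896 reads in the open eyes of E24, E29, E32 right and E32 left and 0 to 2 in each closed eye. Within E24 and E29 it was 149-fold higher, with a 95% counting interval of 41 to 1239, and E29 held nearly all of its reads. Neither Nccrp1 (adjusted p = 0.0875) nor Abpe (adjusted p = 0.517) passed in limma with the mouse as a random effect. Over all 72 genes the median log2 fold change was 2.66 and the smallest 1.18, that of Vamp3.

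Matrix-degrading and plasmin-system genes rose in part, with 3 of 22 tested higher and none lower, beside 0.457% of all genes that rose. Adam8, a metalloprotease of leukocytes and stressed cells, was 13.6, 36.5, 30.4 and 29.3 CPM in the open eyes of E24, E29, E32 right and E32 left, and 0.882 to 1.31 in closed eyes (4.39 ± 0.30, edgeR adjusted p = 0.00246). Plau, the urokinase, was 14.8 CPM in the open eye of E24 and 53.2 to 56.7 in the others, and 3.8 to 7.81 in closed eyes (2.39 ± 0.34, adjusted p = 0.0395; 0.0593 in limma with the mouse as a random effect). For both genes the open eye of E24 was the lowest of the open eyes.

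Of the 42 tested genes whose mouse mutants are known for open eyelids at birth, edgeR called 0 and DESeq2 with the mouse block called 3 higher, and the median was 0.06. At an unadjusted p under 0.05 in edgeR, 6 were higher and none lower, beside 885 higher and 100 lower of all 15754 genes. Grhl3, a regulator of epidermal differentiation, had the smallest p of the list and was 7.37 to 29 CPM in open and 2.72 to 4.62 in closed eyes (1.48 ± 0.32, edgeR adjusted p = 0.175). Inhba, which encodes the activin subunit that drives lid closure, was 3.82 to 22.6 CPM in open and 1.9 to 3.96 in closed eyes (1.68 ± 0.39, adjusted p = 0.201). Map3k1, the kinase lost in mutants with open lids, was 75.2 to 93.2 CPM in open and 84.9 to 90.8 in closed eyes (-0.13 ± 0.14, adjusted p = 0.999). Of 36 tested immediate-early and Egr-family genes edgeR called 0, with 5 higher and none lower at an unadjusted p under 0.05. DESeq2 with the mouse block called 3 higher, and edgeR on E24 and E29 alone, or without E32, called 2. Fosl2, an AP-1 subunit, came nearest at 47.2 to 143 CPM in open and 27.8 to 39.8 in closed eyes (0.96 ± 0.16, adjusted p = 0.066), and Junb was 54.3 to 178 against 27.8 to 62.3 (1.29 ± 0.25, adjusted p = 0.122).

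In edgeR 0 genes were called on the rod, cone, inner retina and lens lists. At an unadjusted p under 0.05 in edgeR, 1 lens gene was higher and 1 inner retina gene lower. Of all 15754 genes, 885 were higher and 100 lower at that p. DESeq2 with the mouse block called 1 lens gene higher and none of the other 3 lists. Every eye held lens RNA, with Cryaa at 38311 to 55398 CPM, and muscle RNA, with Acta1 at 919 to 4368 CPM. The summed level of the 41 progenitor and cell-cycle genes was 6589 and 5683 CPM in the open eyes of E24 and E29, 4433 and 2321 in those of E32, and 6375 to 6884 in closed eyes. Rod genes summed to 2312, 1590, 1189 and 678 CPM in the open eyes of E24, E29, E32 right and E32 left and to 1686 to 2535 in closed eyes. Skeletal muscle genes summed to 5274 CPM in the open and 3299 in the closed eye of E24, and to 9127 and 6292 in those of E29. They were 9818 and 8219 in the eyes of E32 and 2154 and 4516 in those of E28. Of 44 muscle genes tested, 41 were higher in the open eye of both E24 and E29, against 4910 of all 15754 genes. The 41 genes were measured in the same 2 mice. In edgeR 0 of the 44 were called, with 5 higher at an unadjusted p under 0.05. DESeq2 with the mouse block called 1 higher and edgeR on E24 and E29 alone 4. The part of such differences in tissue content in the results was not tested. Over all 29 lists, 37 of 768 tested genes passed (4.82%), 36 higher and 1 lower, against 0.514% of all genes that passed.

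All 72 higher genes were higher in the open eye of E24 and of E29, and all 9 lower genes lower in both, which the fit largely fixes, since it rests on these mice. The median difference of the 72 was 2.49 in E24 and 2.73 in E29. The eyes of E32 and E28 did not set the estimate, beyond the filter, the scaling and the spread. Both E32 eyes were above both E28 eyes for all 72, against 29.3% of all genes, and below them for 8 of the 9, against 30.7%. E32 and E28 differ in genotype label and mouse as well as in eyelid state. Both E32 eyes were above the open eyes of E24 and E29 for 49 of the 72, against 22.5% of all genes.

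**Figure D3:**
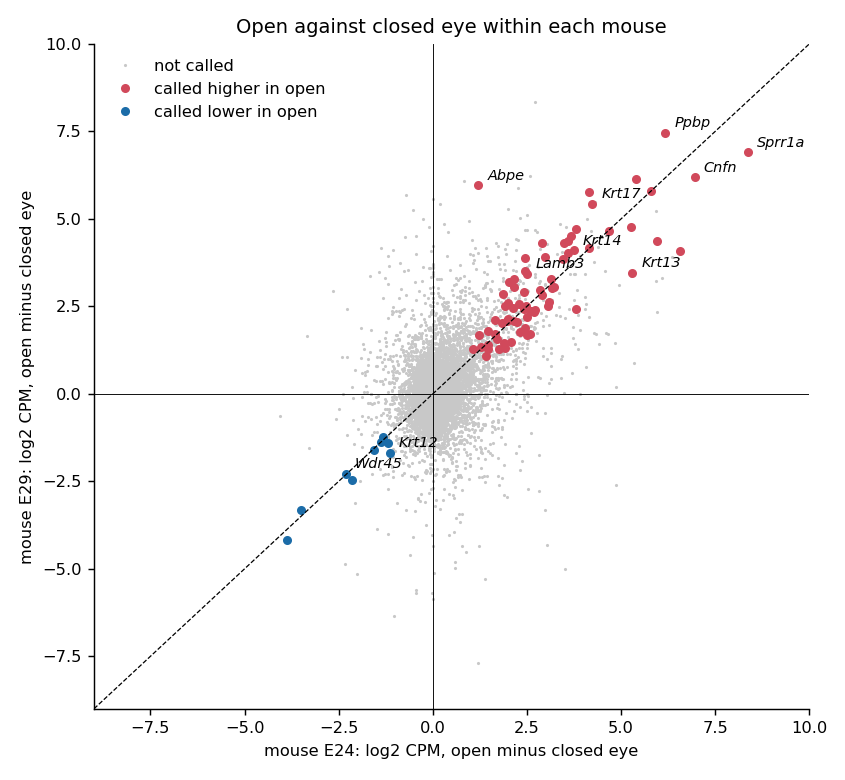
Log2 CPM difference between the open and the closed eye (0.1 CPM added) in E24 on the horizontal and E29 on the vertical axis, for each of 15754 genes. The 72 genes called higher lie in the upper right and the 9 called lower in the lower left, around the dashed line of equal differences, with Abpe far above it.

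A test of whether the effect differed between E24 and E29 called 0 of 16255 genes (0%), with 212 at an unadjusted p under 0.05 and 5 called by DESeq2. The spread in this test came from E28 and E32 alone. With so few eyes to give it, 0 calls do not show that E24 and E29 agree. Between the mice, the closed eye of E29 was apart for Reg3g, an antimicrobial lectin of mucosal epithelium, with 27.4 CPM against 0 to 0.632 in the other eyes, and for Rgs11, with 35.7 against 0.811 to 1.46. Neither passed (adjusted p = 1 in edgeR). A test of right against left eyes called 0 of 15754 (0%), with 290 at an unadjusted p under 0.05 and 17 called by DESeq2. The genes nearest to a side difference were of class II antigen presentation: H2-Ab1 was 69.7 CPM in the right and 16.2 in the left eye of E32, 41 and 10.3 in those of E28, 22.3 and 9.66 in those of E24, and 70.3 and 19.7 in those of E29 (right minus left 1.79 ± 0.18, edgeR adjusted p = 0.277). Without 1 eye the side test called 25 (E32 right left out), 15 (E32 left), 4 (E28 right) and 5 (E28 left) genes. The opposite direction was led by Abi3, at 128 CPM in the left and 62.8 in the right eye of E32 (-0.63 ± 0.16, adjusted p = 1). Side was crossed with state, since the open eye was the right one in E24 and the left one in E29.

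The count of called genes rested on both mice with 1 eye of each state. Without the open eye of E24 or of E29, or the closed eye of E24, edgeR called 0 genes (826, 388 and 837 at an unadjusted p under 0.05), and without the closed eye of E29 it called 1. Without both eyes of E32 it called 129, without the right one 138 and without the left one 151. Without both eyes of E28 it called 81, and without the left one alone 46. The fitted difference of all 81 genes kept its sign wherever they were tested under these alternatives. This was largely fixed beforehand, since all 81 went the same way in E24 and in E29 and the fits reuse these eyes. Limma with the mouse as a random effect called 142 genes, and 61 of the 81 were among them. Of the 81, 26 were also called when the 6 eyes labelled Egr1-/- were compared alone, 4 open against 2 closed and without the mouse.

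The 9 genes that fell were mostly of another kind. They were Atp6v1c2, Cdc40, Wdr45, Prdm4, Krt12, Ubr2, Tmem178, Commd5 and Matn1, of which Matn1 was under 1 RPKM and falls outside the rule for naming. Cdc40, a splicing factor, was 20.4, 18.6, 16.1 and 16.2 CPM in the open eyes of E24, E29, E32 right and E32 left, and 90.6, 104, 99.2 and 98.4 in the closed eyes of E24, E29 and E28 (right, then left) (-2.31 ± 0.16, edgeR adjusted p = 0.00246). Wdr45, an autophagy gene, was 38 to 47.9 CPM in open and 206 to 239 in closed eyes (-2.30 ± 0.17, adjusted p = 0.0031). Prdm4 was 58.9 to 70.5 CPM in open and 175 to 212 in closed eyes (-1.58 ± 0.14, adjusted p = 0.00598). Ubr2, a ubiquitin ligase, was 73.8 to 87.4 CPM in open and 191 to 226 in closed eyes (-1.38 ± 0.14, adjusted p = 0.0114). Commd5 and Tmem178 fell by 1.28 and 1.30 on the log2 scale. Open and closed eyes did not overlap for any of these. Atp6v1c2, a subunit of the vacuolar proton pump, was 0.167 to 1.74 CPM in open and 4.27 to 7.72 in closed eyes (-4.60 ± 0.57, adjusted p = 0.0219). Matn1, a cartilage matrix protein, had 2 reads in the open eyes of E24 and E29 together and 74 in their closed eyes, 39.9-fold lower with a 95% counting interval of 10.7 to 335, but 81 and 59 reads in the eyes of E32. It did not pass in limma with the mouse as a random effect (adjusted p = 0.288). For 8 of the 9, every one but Matn1, all open eyes were below all closed eyes, against 3.8% of all genes.

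A set of 13 called genes had a narrow range, under 0.5 on the log2 scale, within the open and within the closed eyes. This set was chosen after the values were seen. A narrow range alone was not particular to it, since 21.7% of all genes tested had one, against 16% of the called genes. Of all 15754 genes tested, 30 had a narrow range and a log2 gap over 0.5 between the nearest eyes of the states. In the 13 this gap ran from 0.96 (Lix1l) to 3.11 (Far2), and a call by itself favours genes with a gap. The 8 higher in open eyes included Far2, Ergic2, Lonp1, Ctnna2, Lix1l, Pld4 and Vamp3, and the 5 lower were Commd5, Ubr2, Prdm4, Wdr45 and Cdc40. Far2, a fatty acyl-CoA reductase that is also on the list of meibomian lipid enzymes, was 90.9, 102, 97.3 and 104 CPM in the open eyes of E24, E29, E32 right and E32 left, and 10.2, 10.4, 9.63 and 10.4 in the closed eyes of E24, E29 and E28 (right, then left) (3.22 ± 0.16, adjusted p = 0.000906, edgeR). Lonp1, a mitochondrial protease, was 986 to 1116 CPM in open and 303 to 399.8 in closed eyes (1.63 ± 0.16, adjusted p = 0.00946). Far2 and its neighbour Ergic2 overlap by 3441 bases in the later annotation, and reads of an unstranded library cannot be told apart there. Of the 13, 1 is on any of the lists, against 36 of the other 68 called genes.

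The numbers in the library names place the 4 open eyes before the 4 closed eyes. Processing in that order and eyelid state therefore cannot be told apart for any of the 81 genes. What the numbers stand for is not given in the sources used here.

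**Figure D4:**
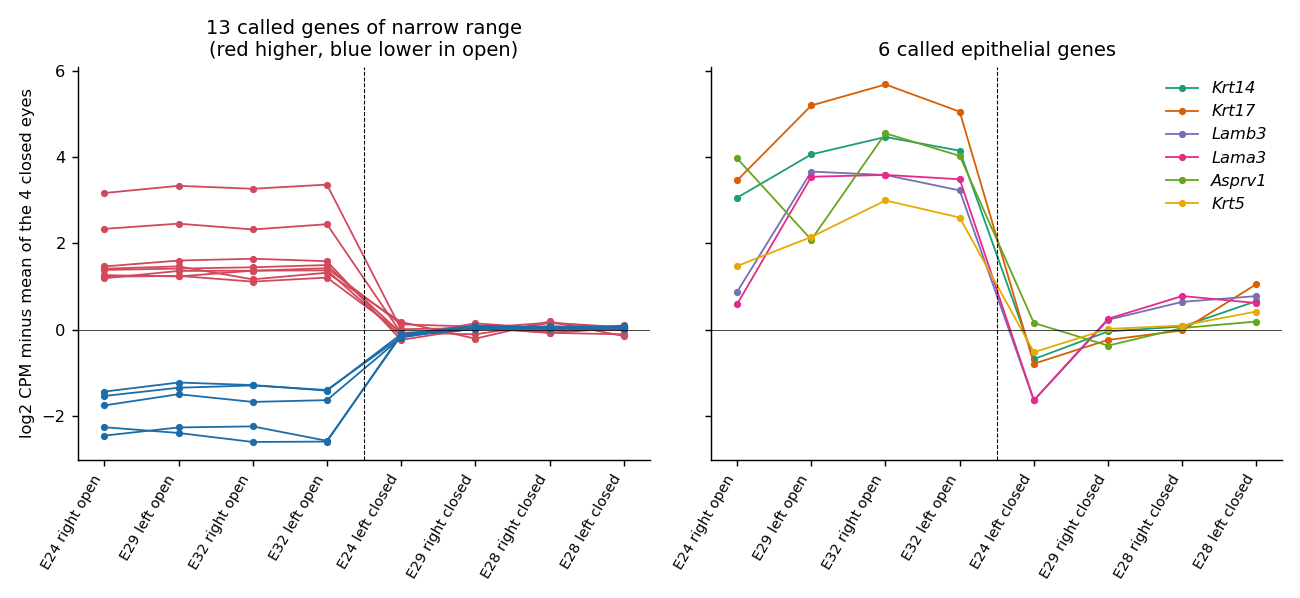
Log2 CPM minus the mean of the 4 closed eyes in each of the 8 eyes, for the 13 called genes of narrow range (left) and 6 called epithelial genes (right). Lines join the values of 1 gene and give no order of the eyes. The narrow genes lie within 0.5 in each state, while Lama3 of E24 lies below the other open eyes.

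In newborn eyes, labelled Egr1-/- against wild type with 2 libraries each and no eyelid state in the labels, 2576 of 17592 genes were higher (14.6%) and 1650 lower (9.38%). Of the 72 genes that rose at day 3, 60 were higher there (83.3% of the 72 and 2.33% of the genes called higher in newborn eyes), 1 was lower and 11 did not pass. Krt14 was higher by 3.62 on the log2 scale (edgeR adjusted p = 0.00535) and Psca by 7.76 (adjusted p = 0.0052). Of the 9 genes that fell, none was lower in newborn eyes and 1, Matn1, was higher. All 60 were among the 64 higher genes outside the narrow set, and none of the 13 narrow genes passed. With a limit of 0.6 in place of 0.5, 2 of 16 narrow genes passed in newborn eyes. Far2 had a log2 difference of -0.11 there (edgeR adjusted p = 0.773). The newborn calls depended on newborn wild-type replicate 1, without which edgeR called 0 genes (4735 at an unadjusted p under 0.05), and on newborn wild-type replicate 2, without which 728 were called and 32 of the 72 were among those higher. Without newborn labelled-knockout replicate 1, 2089 were called and 53 of the 72 were higher.

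**Figure D5:**
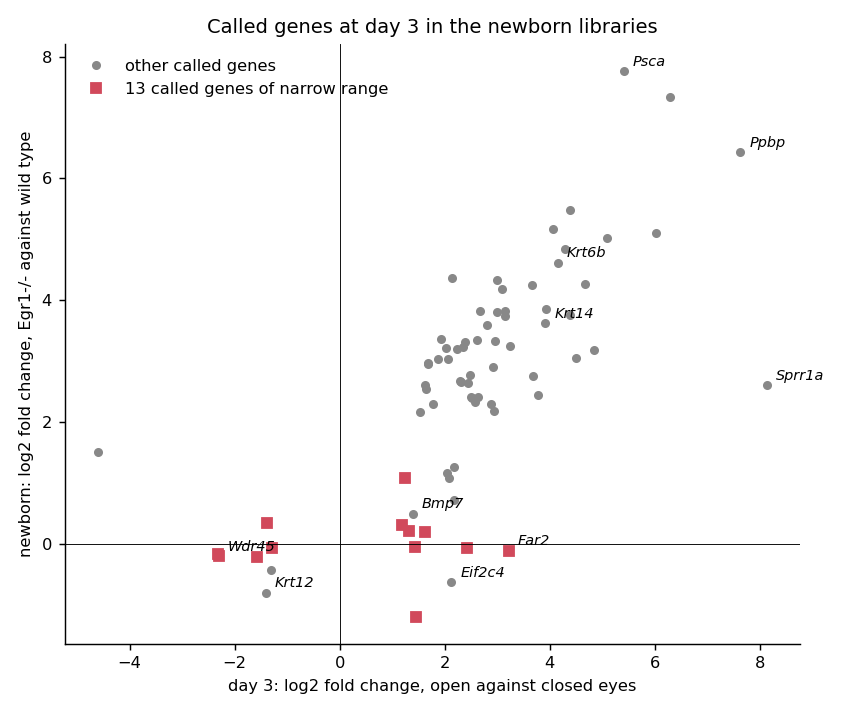
Log2 fold change at day 3 (open against closed) on the horizontal and in newborn eyes (labelled Egr1-/- against wild type) on the vertical axis for 76 called genes, without 5 of few reads. Squares are the 13 genes of narrow range, none of which passed in newborn eyes, and circles the other called genes.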

How the data were processed

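Poly(A)+ RNA of single eyes was sequenced on the Illumina HiSeq platform after 18 PCR cycles, per the labels' protocols, which mention fixation in one place and RNAlater in another. Whether a sequenced eye was fixed is not clear from them. The submitters' processing notes name CASAVA 1.8, Bowtie 0.12.9, TopHat2 2.0.11, SAMtools and build mm8. The counting tool and annotation are not given in the sources used here. The authors deposited raw read counts per RefSeq transcript and their own RPKM values, per the file headers.

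Counts were tested with edgeR 4.0.16 in R 4.3.3 (filterByExpr, TMM scaling, quasi-likelihood F test, Benjamini-Hochberg adjustment at 0.05), with 1 transcript per gene symbol, that of the highest mean count. Day 3 libraries held 31981438 to 43907093 reads in transcripts. The 8 eyes were fitted with mouse as a block, which left 3 residual degrees of freedom. Eyes of the same mouse number share an animal, and deviations of the eyes of E24 (r = 0.532) and E29 (r = 0.0257) were checked across genes. SE is the log2 fold change divided by the square root of F. CPM uses the TMM-scaled totals. RPKM served to set the minimum of 1 for named genes, as the filter of 1 alternative, and to compare levels of Krt5 and Krt14. The newborn contrast came from a fit of the 7 newborn and adult libraries. No source says that these libraries came from separate animals, so their p-values measure the spread between libraries only. DESeq2 1.42.0 and limma 3.58.1 gave alternatives. The fit was tested on simulated data.

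Named were Egr1, up to 12 largest rises and 12 largest falls (passing, at least 1 RPKM in the higher state, same direction in E24 and E29), and up to 4 members of each list with the smallest p. Krt1, Lor, Krt71, Trp63, S100a8, S100a9, Ngp, Camp, Csf3r, Grhl3, Inhba and Map3k1 stand outside this rule. So do Fosl2, Junb, Matn1, Lama3 and the genes of narrow range. Some genes that met it are not reported here. The members and lists were chosen with earlier results of these data known.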

Additional observations from a re-analysis of the deposited data

Results flagged for a closer look

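In groups of 4 eyes, the highest or lowest eye was compared with its nearest neighbour relative to the range of the group. Of 164 such groups (Egr1 and the called genes, open and closed eyes each), 8 had an eye far from the others, and chance alone gives about 1 in 20. In open eyes, E24 was lowest for Lama3 (9.91 CPM against 73.7 in the next eye) and for Plau (14.8 against 53.2). In closed eyes, E24 was highest for Sprr1b (0.353 CPM against 0.0363) and Sprr3 (0.0353 against 0), and lowest for Dhrs3 (30.3 against 48.6) and Bcl3 (3.42 against 8.89). The left eye of E28 was highest for Atp6v1c2 (7.72 CPM against 4.79), and the closed eye of E29 for Ecm1 (58.1 against 35.7). For Sprr3 the highest closed value is 1 read.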

How the results depend on the processing

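Against 81 called genes and 37 on lists, size factors of DESeq2, library totals, TMM without lens genes, no filter, a minimum of 1 RPKM, all transcripts and the side of the eye as a covariate each gave 75 to 104 called genes. DESeq2 with the mouse block called 369 (106 on lists), limma with mouse as a random effect 142 (61 of the 81 among them), and E24 and E29 alone 210 (72 on lists). Without the replicate block edgeR called 400 (95 on lists), and for eyes labelled Egr1-/- without the block 29 (11 on lists). In the newborn eyes edgeR called 4226 genes with the adult libraries in the fit, 5426 in the 4 newborn libraries alone and 5271 in these with a replicate block. Leaving out 1 eye or mouse gave 0 to 151 called genes and 0 to 62 on lists. For right against left, DESeq2 called 17 and leaving out 1 eye or mouse gave 0 to 25. For the difference between mice, DESeq2 called 5. The newborn count ran from 0 to 3739 without 1 library and the genes shared with day 3 from 0 to 58. No called gene changed sign in any alternative in which it was tested, which is largely fixed because the alternatives refit the same eyes. The limits 0.4 and 0.6 for the narrow range gave 12 and 16 genes. These limits, and a count of 62 genes without the narrow set, were added after seeing the data. Only 2 mice inform the contrast.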
